A study of Mus musculus with 15 samples.

Results

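The genes described here are 9 members of the Myc, Max and Mxd family of transcription factors, Myc, Mycn, Mycl, Max, Mxd1, Mxd4, Mxi1, Mnt and Mga, chosen by name out of 54232 genes and followed across 15 libraries of mouse brain tumours. They were chosen by name with earlier results of these data known, and all 9 were found by their Ensembl identifiers. Each tumour arose in the cortex of a C57BL/6 mouse with the Nestin Tv-a transgene, which makes the receptor for RCAS viruses in Nestin-positive cells, after injection of DF-1 chicken cells that release RCAS-Cre, RCAS-PDGFA and an RCAS vector with GFP-tagged H3.3. The histone was either wild type (H3.3WT) or carried the G34R substitution (H3.3G34R), and the mice carried floxed p53 alone (Np53fl) or floxed p53 with floxed ATRX (Np53fl;ATRXfl/fl). This gave 4 groups: 4 Atrx-floxed H3.3G34R libraries, 4 Atrx-floxed H3.3WT libraries, 3 H3.3G34R libraries without the floxed ATRX allele and 4 H3.3WT libraries without it, the last 2 groups being called Atrx-intact. All tumours therefore share Cre, PDGFA, floxed p53, a tagged histone and an origin in Nestin-positive cells, and no untreated brain is part of the comparison. The tissue was taken from the frontal cortex at the functional end point. The replicate numbers below only name libraries. In 3 pairs the titles share a code, but differ in a further number, and the libraries may share a source. These are replicates 1 and 4 of the Atrx-floxed H3.3G34R group, 2 and 3 of the Atrx-intact H3.3G34R group, and 3 and 4 of the Atrx-intact H3.3WT group.

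Members of this family bind DNA as pairs. Max is the shared partner: Myc, Mycn or Mycl joined to Max bind the E-box and raise transcription of genes for ribosome production, metabolism and cell division, while Mxd proteins, Mnt and Mga joined to Max bind the same element and repress. Mxd proteins and Mnt do so through the Sin3 corepressor, and Mga through a variant Polycomb complex, PRC1.6. In the developing brain Mycn drives the expansion of neural progenitors, Mxd genes are known for their rise as cells leave the cell cycle, and MYC and MYCN are recurrently amplified in gliomas of the young.

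The E-box is a sequence that these pairs bind, and some members of the family carry it beside their own starts. Windows of 300 bases, 250 before to 50 after a gene's start (RefSeq, GRCm38.p6, the assembly also called mm10), were at hand for 8 members, all but Myc. The E-box CACGTG, which reads the same on both strands, was found in 3 of their 10 windows, those of Mxd4, Mnt and Max, against 7.15% of the 32851 windows of all genes. These 3 stretches are printed in the direction of the gene, with the E-box in capitals, because they show a family member's own binding element beside the start of another member. That of Mxd4 lies at chr5:34187904-34187949 on the minus strand, that of Mnt at chr11:74830781-74830826 on the plus strand, and that of Max at chr12:76962226-76962271 on the minus strand.
Mxd4: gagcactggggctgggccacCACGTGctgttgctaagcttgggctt
Mnt: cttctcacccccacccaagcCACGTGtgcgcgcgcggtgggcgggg
Max: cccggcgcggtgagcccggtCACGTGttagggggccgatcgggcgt
The first base of the E-box lies 219 bases before the RefSeq start of Mxd4 and 123 bases before that of Mnt. In Max the element spans the RefSeq start, beginning 3 bases before it. In GENCODE vM21, used for the gene positions below, Max starts at 76962201, and the whole printed stretch lies before that start. The same letters stood in 20% of 35 windows of a list of nucleolar and ribosome biogenesis targets of Myc, in 32% of 25 windows of translation and chaperonin targets, in 28.6% of 21 windows of nucleotide and polyamine synthesis targets, in 11.1% of 18 windows of cell cycle targets and in 9.09% of 11 windows of genes known to be repressed by Myc. A match describes letters only and shows no binding.

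Libraries held 22807315 to 35679129 reads in genes. The labels do not say whether each library came from its own mouse, so p-values measure the spread between libraries, which may be technical in part. Atrx, the targeted gene, was lower in the floxed libraries (2376 ± 619 normalized reads, SD, n = 8) than in the intact ones (6687 ± 1395, n = 7), with no overlap (limma, log2 change -1.50, SE 0.19, adjusted p = 0.00293). The labels give no tumour type. Markers of oligodendrocyte progenitors (5 genes) had summed levels of at least 140376 in 14 libraries and 22044 in replicate 3 of the Atrx-intact H3.3WT group. That library also had 210936 for 8 markers of mature neurons, against at most 14670 in the other 14, and its marker sum for dividing cells was 6827, against 6182 to 66508 elsewhere. Its sums were also the highest for astrocyte markers (236570, against at most 59474 elsewhere) and mature oligodendrocyte markers (100434, against at most 93704). The same held for its microglia and macrophage markers (49755, against at most 37427). Results that rest on it are given with and without it. Replicate 1 of the Atrx-floxed H3.3WT group had the highest sum for endothelial markers (52870, against at most 13056 elsewhere). It was also the highest for mural and fibroblast markers (103272, against at most 25152) and the lowest for dividing cells (6182). In bulk tissue, fewer cells of a type and less RNA per cell cannot be told apart.

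All 9 members were read in every library. The smallest number of reads behind a value was 104, for Mycn, where counting error alone is 9.81%, and the smallest for any other member was 279, for Mycl. Levels below are normalized reads, the reads of a gene divided by 1 scaling factor per library, and levels are compared between genes only per kb of exon.

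**Figure D1:**
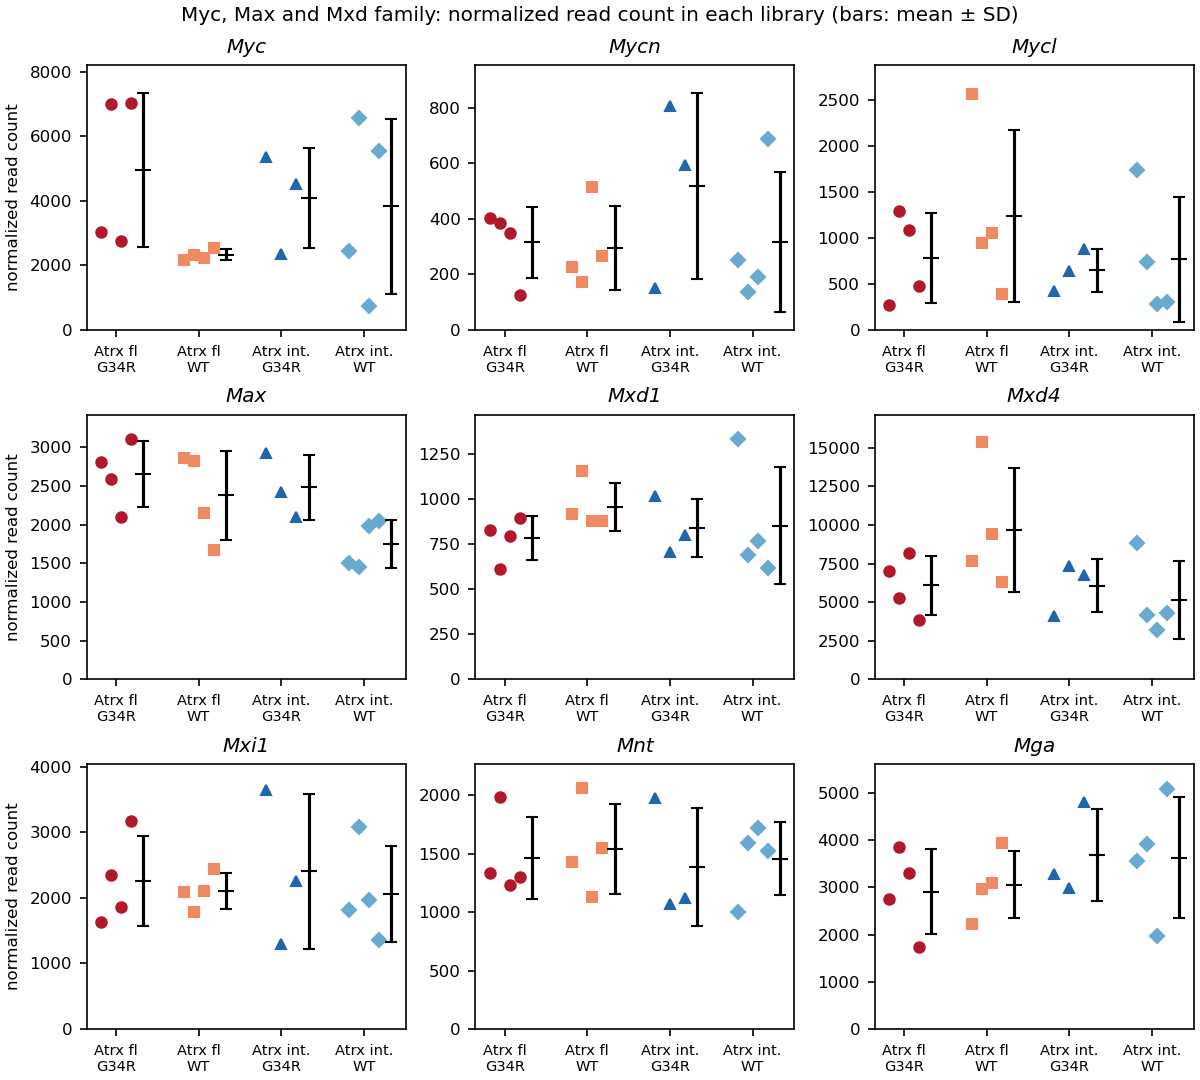
Normalized read count (linear axis from 0) of each of the 9 members in each of the 15 libraries, by group; each point is 1 library, and the black bar is the group mean with its SD. Myc, Mycl and Mycn spread over 6.4-fold to 9.5-fold between the lowest and the highest library, while Max, Mxd1 and Mnt stay within 2.2-fold. Without replicate 3 of the Atrx-intact H3.3WT group the spread of Myc is 3.25-fold, and those of Mycl and Mycn are unchanged.

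Per kb of exon, Myc was the most abundant member, at 1391 ± 751 normalized reads per kb (SD, n = 15). It was followed by Mxd4 (800 ± 362), Max (640.2 ± 148), Mxi1 (321 ± 98.1), Mnt (317 ± 74.9), Mycl (216 ± 156), Mga (215 ± 61.6), Mxd1 (122 ± 27.5) and Mycn (106 ± 64.8). Several neighbours in this order did not differ beyond their spread: Myc was above Mxd4 in 9 of 15 libraries, Mxi1 above Mnt in 8, Mycl above Mga in 7 and Mxd1 above Mycn in 9. The steps from Max to Mxi1 and from Mga to Mxd1 held in 14 of 15 libraries each. Taking the longest transcript in place of all exons left every member in its place, although it raised the level per kb of Max to 1186, that of Mxd4 to 1467, that of Mxi1 to 435 and that of Mxd1 to 185.

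Among the 3 Myc genes, which supply the activating partner, Myc was the most abundant in 15 of 15 libraries, and Mycl was above Mycn in 12. Myc made up 53.1% of their summed level per kb in replicate 1 of the Atrx-floxed H3.3WT group, where Mycl made up 42.4%. That library had the highest sums of endothelial markers and of mural and fibroblast markers. In replicate 4 of the Atrx-floxed H3.3G34R group Myc made up 94.3%. Mycn, the paralog of neural progenitors, had its highest share, 19.3%, in replicate 2 of the Atrx-intact H3.3G34R group. Among Mxd1, Mxd4 and Mxi1, the highest was Mxd4 in 13 libraries and Mxi1 in the other 2, and Mxd1 was the lowest in 15. Myc exceeded Max, its obligate partner, per kb of exon in 14 of 15 libraries, the exception being replicate 3 of the Atrx-intact H3.3WT group. This count depends on the length used, and per kb of the longest transcript Myc was above Max in 9 of 15 libraries and above Mxd4 in 6. Myc remained the highest of the 3 Myc genes in 15 of 15 by that length.

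**Figure D2:**
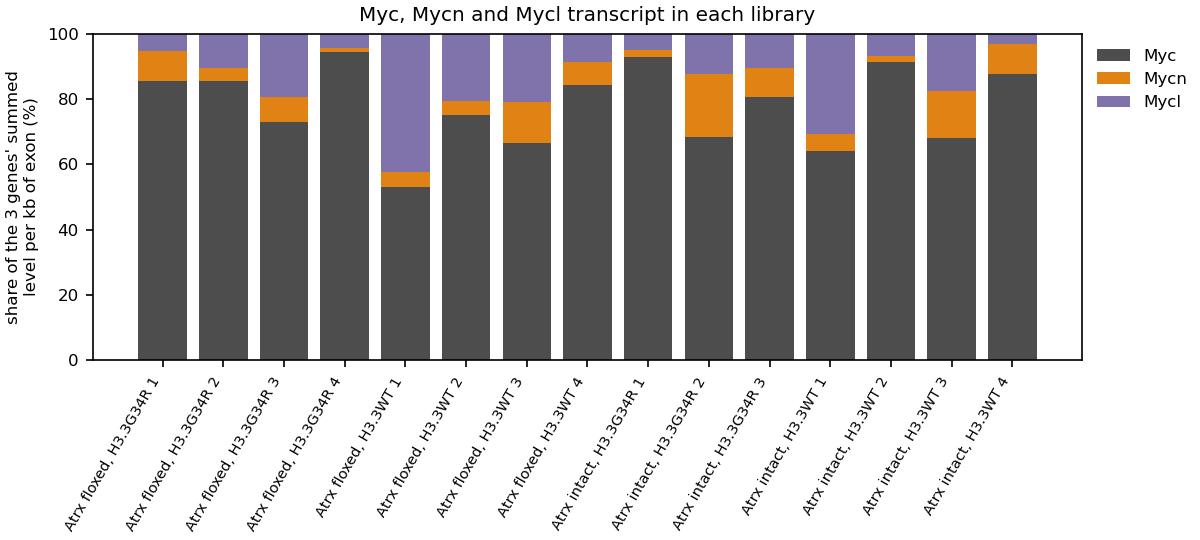
Share (percent) of Myc, Mycl and Mycn in their summed level per kb of exon in each of the 15 libraries, in bars that start at 0 and are ordered by group. Myc holds the largest share in every library, from 53.1% to 94.3%.

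Of the activating members, Myc lies at chr15:61985391-61990374 on the plus strand (mm10, GENCODE vM21, as for all genes below; ENSMUSG00000022346). Its levels were 3023, 6998, 2747 and 7034 in the Atrx-floxed H3.3G34R libraries, and 2162, 2337, 2243 and 2556 in the Atrx-floxed H3.3WT libraries. They were 5371, 2357 and 4530 in the Atrx-intact H3.3G34R libraries, and 2447, 6571, 739 and 5562 in the Atrx-intact H3.3WT libraries. No library lay between 3023 and 4530: 6 libraries from 3 groups were above that gap and 9 below it, and all 4 Atrx-floxed H3.3WT libraries were below. The lowest value, 739, is that of the neuron-marker-rich replicate 3.

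Mycn (chr12:12936093-12941914, minus strand, ENSMUSG00000037169) had 403, 385, 349 and 125 normalized reads in the Atrx-floxed H3.3G34R libraries and 226, 173, 514 and 265 in the Atrx-floxed H3.3WT libraries. Its levels in the Atrx-intact libraries were 151, 807 and 594 with H3.3G34R and 252, 137, 191 and 689 with H3.3WT. The 4 groups overlap, and the 3 highest values are all in Atrx-intact libraries. Mycl (chr4:122995652-123002485, plus strand, ENSMUSG00000028654) had 271, 1295, 1088 and 475 in the Atrx-floxed H3.3G34R libraries and 2564, 947, 1055 and 389 in the Atrx-floxed H3.3WT libraries. In the Atrx-intact libraries it had 423, 638 and 885 with H3.3G34R and 1739, 740, 283 and 308 with H3.3WT. The coefficient of variation of Mycl ran from 35.6% to 88.7% within the 4 groups and was 72.2% over 15 libraries, against 54.0% for Myc and 60.9% for Mycn. Without replicate 3 of the Atrx-intact H3.3WT group it was 69.1% for Mycl, 48.3% for Myc and 59.9% for Mycn.

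Max, the common partner (chr12:76937269-76962201, minus strand, ENSMUSG00000059436), varied less, with a coefficient of variation of 23.2%. It had 2808, 2589, 2100 and 3112 normalized reads in the Atrx-floxed H3.3G34R libraries and 2855, 2826, 2156 and 1671 in the Atrx-floxed H3.3WT libraries. It had 2920, 2420 and 2099 in the Atrx-intact H3.3G34R libraries and 1510, 1454, 1986 and 2045 in the Atrx-intact H3.3WT libraries. The last group lies low: all 4 of its values are below all 7 values of the H3.3G34R libraries, and they overlap with the Atrx-floxed H3.3WT libraries through the 1671 of replicate 4.

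Of the repressing partners, Mxd4 (chr5:34173883-34187720, minus strand, ENSMUSG00000037235) had 7049, 5265, 8207 and 3852 normalized reads in the Atrx-floxed H3.3G34R libraries and 7638, 15370, 9427 and 6275 in the Atrx-floxed H3.3WT libraries. It had 4098, 7360 and 6738 in the Atrx-intact H3.3G34R libraries and 8847, 4156, 3228 and 4321 in the Atrx-intact H3.3WT libraries. The highest value by far is that of replicate 2 of the Atrx-floxed H3.3WT group. Mxi1 (chr19:53310518-53375810, plus strand, ENSMUSG00000025025) ran from 1304 to 3655 and Mxd1 (chr6:86647042-86669161, minus strand, ENSMUSG00000001156) from 616 to 1334. Mnt (chr11:74830920-74845725, plus strand, ENSMUSG00000000282), the broadly expressed repressor that competes with Myc for Max, ran from 1001 to 2059. Mga (chr2:119897228-119969581, plus strand, ENSMUSG00000033943), the large scaffold of PRC1.6, ran from 1739 to 5074. For these 4 genes every pair of groups overlapped.

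Other annotated genes overlap Max, Mxd1, Mxd4 and Mxi1, on the opposite strand for Mxd4 and Mxi1. The strand setting of the counting is not given in the sources used here. How reads that fall in both genes were counted is therefore not known for Mxd4 and Mxi1. For Max and Mxd1 the overlapping gene lies on the same strand, where no strand setting would separate the reads. The other 5 members have no overlapping gene.

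The effect of H3.3G34R was compared first within the Atrx-floxed tumours. Myc was higher with H3.3G34R, 4871 ± 2355 (SD, n = 4) against 2278 ± 172 (n = 4) on the scale of that pair, and the groups did not overlap. On the scale of all 15 libraries, the lowest H3.3G34R value was 2747 and the highest H3.3WT value 2556, so they were nearly adjacent. The log2 change was 0.96 (SE 0.33, 95% interval 0.22 to 1.70), and in limma it did not pass adjustment over all genes (adjusted p = 0.9997). In the authors' deposited table the same change was 1.10 (SE 0.38, adjusted p = 0.509). The range of the log2 change over all other settings was 0.74 to 1.20. The summed level of 8 mature neuron markers was also higher in the H3.3G34R libraries of this pair, at 2151 to 14670 against 873 to 1561 without overlap, and its part in the change of Myc was not tested. Mxd4 was lower with H3.3G34R, with a log2 change of -0.64 (SE 0.32, 95% interval -1.36 to 0.09, limma adjusted p = 0.9997), and its groups overlapped. None of the 9 members passed the threshold of an adjusted p under 0.05 in this comparison, where 0% of 17521 genes did. At an unadjusted p under 0.05 it was 1 of 9, Myc, against 2.79% of all genes, and 1 of 9, again Myc, had groups that did not overlap, against 2.16% of all genes.

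Within the Atrx-intact tumours, Max was higher with H3.3G34R, 2537 ± 418 (SD, n = 3) against 1786 ± 309 (n = 4), and the groups did not overlap. Its log2 change was 0.51 (SE 0.24, 95% interval -0.03 to 1.05, limma adjusted p = 0.99999). Myc, at 4173 ± 1566 against 3920 ± 2771, had a log2 change of 0.44 (SE 0.74, 95% interval -1.28 to 2.16), which became -0.22 without replicate 3 of the H3.3WT group. Of the 9 members 0 were called (0% of 17873 genes), 0 had an unadjusted p under 0.05 (1.47%) and 1, Max, had groups that did not overlap (2.61%).

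Over both Atrx states, the log2 change with H3.3G34R was 0.71 for Myc (SE 0.41, 95% interval -0.15 to 1.58) and 0.33 for Max (SE 0.16, 95% interval -0.01 to 0.67), with a limma adjusted p = 0.9994 for both. Without replicate 3 of the Atrx-intact H3.3WT group the change of Myc was 0.45. Called members numbered 0 of 9 (0% of 17776 genes), 0 had an unadjusted p under 0.05 (2.37%) and 0 had groups that did not overlap (0.0113%). Whether the H3.3G34R effect differed between Atrx states was tested as an interaction, in which 0 of 9 members were called (0% of genes) and 0 had an unadjusted p under 0.05 (2.05%). The interaction was 0.52 for Myc (SE 0.83, 95% interval -1.26 to 2.30), and 1.17 without replicate 3 of the Atrx-intact H3.3WT group. The change of Myc in the floxed tumours is therefore not shown to differ from that in the intact ones. The smallest interaction p was that of Mxd4, at -0.95 (SE 0.53, 95% interval -2.08 to 0.19, limma adjusted p = 0.9996).

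The effect of the floxed ATRX allele was compared under each histone. Under H3.3WT, Mxd4 was higher in the floxed tumours, 9666 ± 4007 (SD, n = 4) against 5160 ± 2537 (n = 4). The groups overlapped, since the 8847 of an intact library, on the scale of all 15 libraries, exceeded the 2 lower floxed values. The log2 change was 0.93 (SE 0.38, 95% interval 0.07 to 1.79, limma adjusted p = 0.975). In the authors' deposited table it was 0.91 (SE 0.46, adjusted p = 0.679). Leaving out 1 library at a time gave log2 changes of 0.68 to 1.23 for Mxd4. Myc had a log2 change of -0.30 (SE 0.61), and of -0.96 (limma adjusted p = 0.685) without replicate 3 of the intact group. No member was called (0 of 9, against 0.0335% of 17893 genes), 1 of 9, Mxd4, had an unadjusted p under 0.05 (3.76%) and 0 had groups that did not overlap (2.65%).

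Under H3.3G34R, the log2 changes of the 9 members ran from -0.54 for Mycn (SE 0.65) to 0.22 for Myc (SE 0.44). None was called (0.0229% of 17459 genes), none had an unadjusted p under 0.05 (3.39%) and none had groups that did not overlap (4.64%). Without replicate 1 of the Atrx-intact group, Mycn had -1.28 (limma adjusted p = 0.992). Over both histones 0 of 9 were called (0.107% of 17776 genes), 0 had an unadjusted p under 0.05 (5.48%) and 0 had groups that did not overlap (0.135%). There Mxd4 had 0.50 (SE 0.28, 95% interval -0.10 to 1.10), Max 0.27 (SE 0.16, 95% interval -0.06 to 0.61) and Mga -0.28 (SE 0.22, 95% interval -0.75 to 0.19). Tumours with both changes were also set against those with neither. Max had 2572 ± 415 (SD, n = 4) against 1690 ± 295 (n = 4) without overlap, a log2 change of 0.61 (SE 0.21, 95% interval 0.14 to 1.08, limma adjusted p = 0.999). In the authors' deposited table this change was 0.61 (SE 0.26, adjusted p = 0.525). Of the 9 members 0 were called (0.0227% of 17659 genes), 1, Max, had an unadjusted p under 0.05 (4.37%) and 1, also Max, had groups that did not overlap (2.94%).

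**Figure D3:**
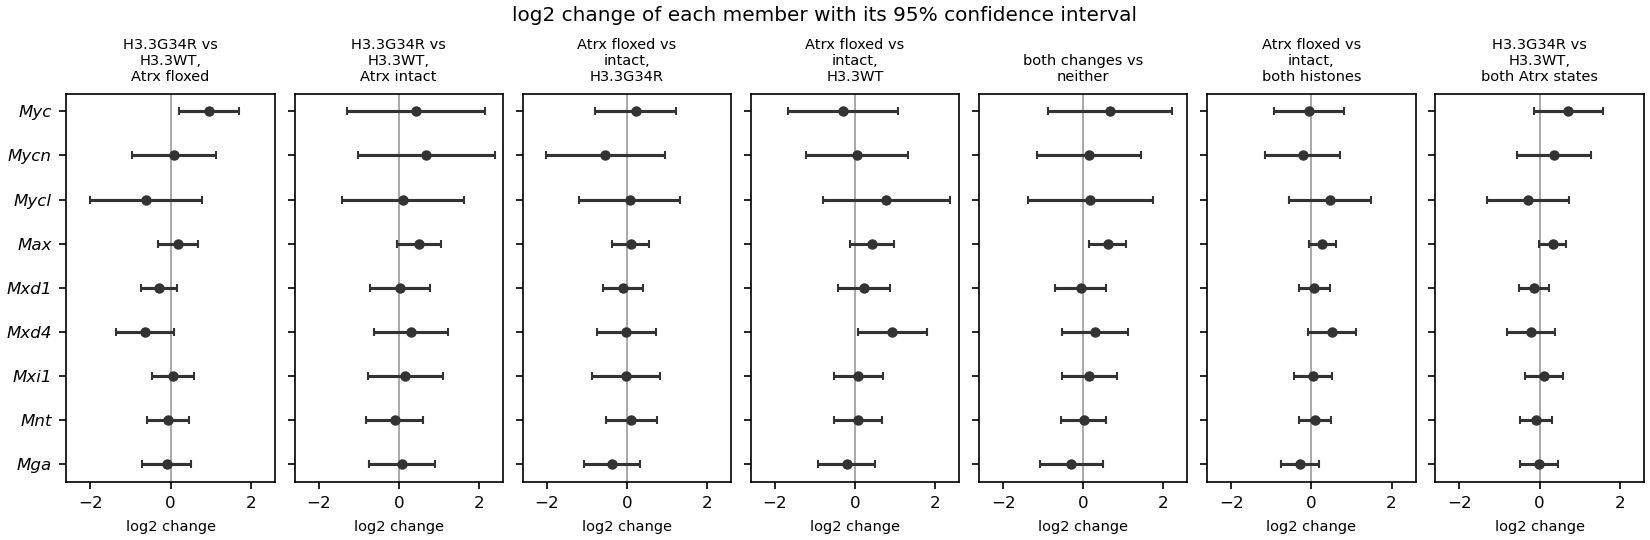
The log2 change of each member (points) with its 95% confidence interval (bars) from limma in the 5 pair comparisons and the 2 comparisons over all 15 libraries; the vertical line marks 0. The intervals of Myc, Mycn and Mycl are the widest, and 3 intervals of the pair comparisons lie clear of 0, those of Myc, Mxd4 and Max in 1 comparison each.

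Across the authors' 5 deposited tables none of the 9 members passed an adjusted p of 0.05, where 0.182%, 0.0578%, 0.538%, 0.352% and 0.38% of genes did in the order H3.3G34R with floxed and with intact Atrx, floxed Atrx with H3.3G34R and with H3.3WT, and both changes against neither. The comparisons share libraries, so their values are not independent of each other. Of the 45 intervals of the pair comparisons, 21 lay within a 2-fold change in either direction and 39 within a 4-fold change. For Mxd1 and Mnt all 5 intervals lay within 2-fold, for Mxi1 4 of 5, for Max and Mga 3 of 5, for Mxd4 1 of 5, and for Myc, Mycn and Mycl none.

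Myc is known to raise the genes of ribosome production, and a list of 38 nucleolar and ribosome biogenesis targets followed it from library to library. Each gene's level was taken as log2 against its own mean over the libraries, and the median over the 38 genes described a library. That median was lowest, -0.64, in the library with the lowest Myc (739), and highest, 0.63, 0.62 and 0.58, in 3 of the 4 libraries with the most Myc (7034, 5562 and 6571). Pearson's r between log2 Myc and the median was 0.86 and Spearman's rho 0.88 over 15 libraries (permutation p = 1e-05, the smallest these permutations can give, and 2e-05, two-sided; both 0.00045 after adjustment over 45 relations of a member with a target list). The relation remained without the 2 libraries farthest from the median of Myc (r = 0.80), without replicate 3 of the Atrx-intact H3.3WT group (r = 0.84) and after each group's mean was removed (r = 0.86). On the 2 sides of the gap in Myc it was weaker, with r = 0.48 and rho = 0.38 in the 8 libraries between 2162 and 3023, and r = 0.54 and rho = 0.77 in the 6 libraries above the gap.

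Gene by gene, 38 of 38 list members had a positive rho with Myc, with a median of 0.73, and 34 reached 0.5. Of all 14235 genes with a mean of at least 50, 49.2% were positive, the median was -0.01 and 10.1% reached 0.5. The closest, picked after their values were seen, were Nop58 (rho 0.91), a core protein of box C/D snoRNPs, Rrs1 (0.89), which takes part in assembly of the large ribosomal subunit, and Dkc1 (0.88), the pseudouridine synthase of box H/ACA snoRNPs. Fbl, the rRNA methyltransferase fibrillarin, had 0.36. The other Myc genes did not show the pattern, as only 16 of the 38 genes had a positive rho with Mycn and 3 with Mycl. With Mycl the other 35 had a negative rho. Its relation with the nucleolar median was r = -0.34 and rho = -0.37 (permutation p adjusted over 45 relations 0.621 and 0.590). Without replicate 3 of the Atrx-intact H3.3WT group these were -0.62 and -0.64. Summed markers of dividing cells also moved with the nucleolar median (r = 0.67, rho = 0.59). Without replicate 3 of the Atrx-intact H3.3WT group these were 0.58 and 0.51. With these markers held constant over all 15 libraries, the correlation of Myc with that median was 0.75. The part of cell division in the relation was not tested.

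**Figure D4:**
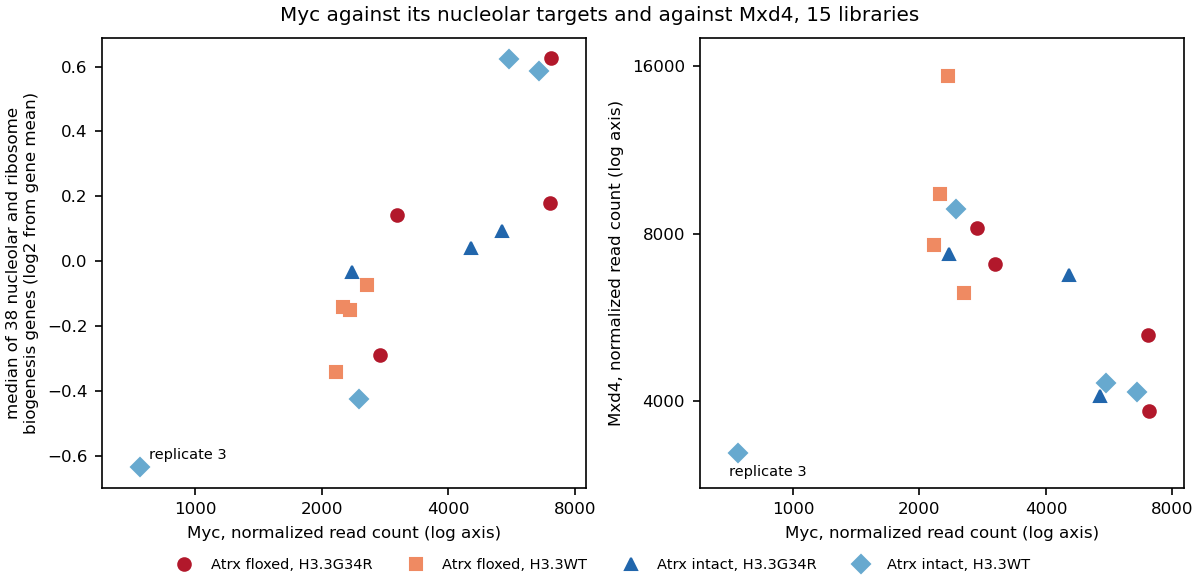
Left, median level of 38 nucleolar and ribosome biogenesis genes (log2 from each gene's mean) against Myc (normalized reads, log axis); right, Mxd4 against Myc (both log axes); each point is 1 of 15 libraries, shaped by group. The nucleolar median is higher where Myc is higher (rho 0.88). Mxd4 against Myc has a rho of -0.51 over 15 libraries, which did not pass adjustment. It is -0.85 without replicate 3 of the Atrx-intact H3.3WT group, which is low in both.

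The other target lists were related to Myc in the same direction. For 17 translation and chaperonin genes r was 0.78 and rho 0.79 (permutation p adjusted over the 45 relations 0.00735 and 0.01005). For 20 cell cycle genes r was 0.76 and rho 0.67 (adjusted 0.0132 and 0.0856), and for 20 nucleotide and polyamine synthesis genes r was 0.74 and rho 0.65 (adjusted 0.0135 and 0.102), so that in these lists the rank correlation missed the threshold. Without replicate 3 of the Atrx-intact H3.3WT group r was 0.75 for the translation, 0.62 for the cell cycle and 0.67 for the nucleotide and polyamine list. Without the 2 libraries farthest from the median of Myc these were 0.70, 0.57 and 0.59, and within groups without replicate 3 they were 0.72, 0.48 and 0.55. Genes known to be repressed by Myc had no such relation with it (r = 0.24, adjusted p = 0.652), and their closest relation was with Max (r = 0.86, rho = 0.89, both adjusted p = 0.00045, 9 genes, 0 of them on chromosome 12). Taken relative to the other genes of each chromosome, that relation of Max was r = 0.57 and rho = 0.63. Single genes followed Max less closely than their median did: 7 of the 9 had a positive rho, the median rho was 0.31 and 4 reached 0.5. Of all genes with a mean of at least 50, 49.9% had a positive rho with Max and 9.48% reached 0.5. Mxd4, the repressor, ran against the nucleolar list (r = -0.40, rho = -0.50, adjusted p = 0.621 and 0.465), and more closely without the neuron-marker-rich replicate 3 (r = -0.77, rho = -0.84, 14 libraries).

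Between groups, 36 of 38 nucleolar targets were higher with H3.3G34R in the Atrx-floxed tumours, with a median log2 change of 0.39 (0.26 to 0.57 with 1 library left out), where 49.9% of all genes were higher. None passed the adjusted threshold, and 6 had an unadjusted p under 0.05, Ddx21, Bop1, Wdr43, Rrs1, Tbl3 and Bysl. Most of the 38 genes followed Myc from library to library. Counts within a list, here and below, are therefore not counts of independent results. In the same comparison 18 of 20 cell cycle targets, 18 of 20 nucleotide and polyamine targets and 15 of 17 translation and chaperonin targets were higher, and 0 passed. In the Atrx-intact tumours 22 of 38 nucleolar targets were higher with H3.3G34R, and 5 of 38 when replicate 3 of the H3.3WT group was left out. The corresponding counts for both changes against neither were 31 and 12. Over both Atrx states 37 of 38 were higher with H3.3G34R (median 0.21), and 33 without that library (median 0.14).

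With the floxed ATRX allele, over both histones, 14 of 38 nucleolar targets were higher and 24 lower, and 9 and 29 without replicate 3 of the Atrx-intact H3.3WT group. Of the other target lists 18 of 20 cell cycle genes were lower (20 of 20 without that library), as were 14 of 17 translation and chaperonin genes (14 without it) and 15 of 20 nucleotide and polyamine genes (18 without it). Of all genes 49.7% were higher, and none of the lower genes of these lists was called. A single gene of all the lists passed the threshold in any comparison: Fbl rose in Atrx-floxed tumours, from 292 ± 99.0 (SD, n = 7) to 1073 ± 425 (n = 8), with a log2 change of 1.88 (SE 0.28, limma adjusted p = 0.00785). Under H3.3WT alone, 33 of 38 nucleolar targets were lower in floxed tumours, with a median log2 change of -0.28 and 0 of them called, where 49.5% of all genes were higher. Without replicate 3 of the intact group 36 were lower, and with 1 library left out the median ran from -0.46, without that replicate, to -0.06.

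The wider network was followed through 4 further genes, Mxd3, Mlx, Mlxip and Mlxipl, which gave 0 calls in the 8 comparisons. Mlxipl, which encodes the glucose-responsive factor ChREBP, was the lowest and most variable of them, at 63.5 ± 89.8 normalized reads (SD, n = 15). Without replicate 3 of the Atrx-intact H3.3WT group it had 44.0 ± 50.3 (n = 14). Mxd3, the Mxd gene of proliferating cells, had 480 ± 210 and a log2 change of 0.30 with H3.3G34R over both Atrx states (SE 0.40). No call fell among 15 coactivators and cofactors of Myc, 15 regulators of Myc protein stability, 13 partners of Mga in PRC1.6 or 15 Sin3 corepressor genes. Of the PRC1.6 genes Tfdp2, a dimerization partner of E2F factors, had the smallest p, with a log2 change of -0.58 with H3.3G34R over both Atrx states (SE 0.19, limma adjusted p = 0.9994).

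Levels of the members were also set beside those of the genes around them on the chromosome. For Max, the median of 160 genes within 10 Mb (log2 from each gene's mean, less the median of all genes) was -0.59, -0.54 and -0.37 in replicates 1, 2 and 4 of the Atrx-intact H3.3WT group and -0.30 in replicate 4 of the Atrx-floxed H3.3WT group. It lay between -0.04 and 0.27 in the other 11 libraries, where Max was between 1986 and 3112. Chromosome 12 as a whole had the same pattern, and its median spread more between libraries (SD 0.30) than that of any other chromosome. In these 4 libraries Max had 1510, 1454, 2045 and 1671, of which the 2045 of replicate 4 of the Atrx-intact group lies within the range of the other 11. Since the libraries form 2 clusters, no correlation over all 15 is given, and within the 11 it was r = -0.17 and rho = -0.27. With every gene taken relative to its chromosome's median, the log2 change of Max between both changes and neither was 0.11 in place of 0.61, that with H3.3G34R in the Atrx-intact tumours was 0.16 in place of 0.51, and that over both Atrx states was 0.09 in place of 0.33.

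The same was measured for the other members. Mxd4 had r = 0.77 and rho = 0.69 with the 159 genes within 10 Mb over 15 libraries (permutation p adjusted over 9 members 0.00459 and 0.0193), and r = 0.74 within groups. Replicate 2 of the Atrx-floxed H3.3WT group, with the highest Mxd4 (15370), had the highest median of these neighbours, 0.52. Relative to its chromosome, Mxd4 under H3.3WT had a log2 change of 0.80 between floxed and intact tumours. Myc had r = 0.68 and rho = 0.85 with its 53 neighbours (adjusted 0.0113 and 0.00198) and r = 0.64 without the 2 libraries farthest from the median of Myc. In the 8 libraries below the gap in Myc it was r = 0.64 and rho = 0.81, and in the 6 above it r = 0.39 and rho = 0.31. The neighbours of Myc were higher, at -0.06 to 0.38, in the Atrx-floxed H3.3G34R libraries than in the Atrx-floxed H3.3WT libraries, at -0.21 to -0.10. Relative to its chromosome, the change of Myc between them was 0.74, in place of 0.96. Relative to each gene's chromosome the correlation of Myc with the nucleolar targets was r = 0.87.

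Mga had r = 0.72 and rho = 0.71 with its 170 neighbours (adjusted 0.00870 and 0.0193), whose medians stayed between -0.21 and 0.11. For Mycn, Mycl, Mxd1, Mxi1 and Mnt the relation with neighbours had an r between -0.14 and 0.37 and an adjusted p of at least 0.322. The number of chromosome copies was not measured, and its part in these results was not tested.

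**Figure D5:**
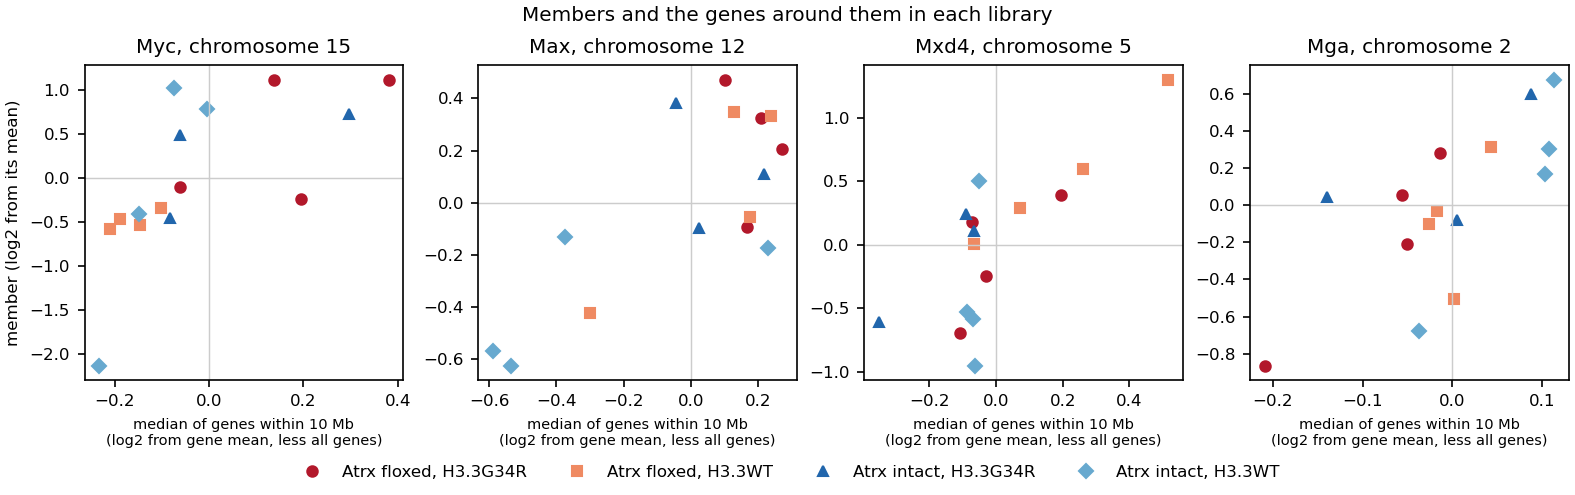
Level of Myc, Max, Mxd4 and Mga (log2 from the gene's mean) against the median of the genes within 10 Mb (log2 from each gene's mean, less the median of all genes); each point is 1 of 15 libraries, shaped by group. For Max, 4 libraries with neighbours at -0.30 or below stand apart from the other 11.

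Between members, none of the 36 pairs had a relation that passed adjustment (smallest adjusted p 0.118 for r and 0.255 for rho). The pair with the largest r was Mycn and Mxi1, at r = -0.71 and rho = -0.60 (permutation p = 0.00327 and 0.0213). Myc and Mxd4, an activator and a repressor for the same partner, had r = -0.26 and rho = -0.51 over 15 libraries. Without replicate 3 of the Atrx-intact H3.3WT group, low in both, these were -0.83 and -0.85. None of 99 relations between a member and a marker list passed adjustment (smallest adjusted p 0.214 for r and 0.372 for rho). The largest were those of Mga with oligodendrocyte progenitor markers (rho 0.70), Mycn with microglia and macrophage markers (rho -0.67) and Myc with dividing cell markers (rho 0.64).

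The genes whose levels ranked the libraries most like a member were sought among 13235 genes with a mean of at least 50, predicted genes, Riken clones, pseudogenes and mitochondrial genes being left out here, by Spearman's rho over the 15 libraries and as a description only. For Myc they were Ythdf2 (rho 0.95), a reader of N6-methyladenosine in mRNA, Ltv1 (0.93), a factor of small ribosomal subunit maturation, and Tsc22d2 (0.93). For Mycn they were Kcnd3 (0.92), Arxes1 (0.90) and Hfm1 (0.89), and for Mycl Adcy6, Git2 and Pan2 (0.86, 0.86 and 0.85). For Max they were Sptssa (0.93), Rnf113a2 (0.93) and Ift43 (0.93), all on chromosome 12 as Max is, and for Mxd4 Msi1 (0.93), Cc2d2a (0.91) and Zkscan5 (0.89), all on chromosome 5 as Mxd4 is. Msi1 encodes Musashi-1, an RNA-binding protein of neural progenitors. For Mxd1 they were Ftl1, Prpsap1 and Bsdc1 (0.85 to 0.87), for Mxi1 Cops9, Ascc1 and Pdia6 (0.87 to 0.89), for Mnt Shoc2, Arih1 and Nfx1 (0.86 to 0.94), and for Mga Armcx4, Itch and Pcm1 (0.94 to 0.95). Among the 100 genes most like a member, 23 were on its own chromosome for Max (3.59% of all genes compared), 23 for Mxd4 (6.38%), 17 for Myc (3.997%) and 16 for Mga (7.99%). The corresponding numbers were 3 to 5 for Mycn, Mycl, Mxd1 and Mxi1 and 11 for Mnt (8.18%).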

How the data were processed

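RNA of tumours was extracted with a Qiagen RNeasy kit and sequenced as TruSeq mRNA libraries, per the labels' protocols. STAR 2.7, HTSeq and DESeq2 with mm10 are named in the submitters' processing notes. Other versions, the settings and the gene models used by the authors were not given in the sources used here. For each pair of groups the authors deposited 1 table, 5 in all. Their library columns hold a signal, read counts that the authors divided by 1 size factor per library within a table. Per the file headers, each table also holds the mean signal, the log2 fold change and its SE, p-values before and after adjustment, and the Wald score. In all columns with usable steps, 100% of values were whole reads (within 0.01), which gave the reads of each library, and 3 columns whose steps were near 1 were not needed. Of the identifiers, 54165 (99.9%) matched GENCODE vM21.

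Each pair was fitted with limma 3.58.1 (trend, robust; R 4.3.3) on log2(value + 1), keeping genes whose mean was 10 or more, with Benjamini-Hochberg adjustment over all of them. Fold changes are on that scale, which understates changes of low genes. Joint comparisons used reads of 15 libraries scaled by the median of ratios, as did levels of single libraries, with Atrx or histone as a covariate. Correlations used 100000 permutations on the log2 scale. Alternatives were edgeR 4.0.16 and DESeq2 1.42.0 on the reads, other pseudocounts, filters and scalings, and single libraries left out. Relations with target lists, values relative to a chromosome and list counts without 1 library were added after data were seen. No 2 libraries of a group agreed within sampling noise. The named genes are the 9 members, Atrx, list genes called or (with none called) with the smallest p in the 2 joint comparisons, and the 3 genes most like each member. The members and lists were chosen with earlier results of these data known.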

Additional observations from a re-analysis of the deposited data

Results flagged for a closer look

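In 2 of 27 groups of 4 libraries examined, 1 library stood far from the other 3 for its gene, where chance gives about 1 in 20. Mxd1 had 1158.94 normalized reads in replicate 2 of the Atrx-floxed H3.3WT group, against 879 to 920 in the other 3 libraries. Mnt had 1988.81 normalized reads in replicate 2 of the Atrx-floxed H3.3G34R group, against 1234 to 1331 in the other 3.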

How the results depend on the processing

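No member was called in any of 8 comparisons under any setting run (lowest adjusted p 0.461, for Max between both changes and neither without replicate 3 of the Atrx-intact H3.3WT group). Of 1440 values of a member under an alternative, 8 moved by at least 1 SE, 5 of them values of Max relative to its chromosome and 3 with 1 library left out. The sign turned in 131 values over 38 of 72 results, and in the other 34 it held. Myc between histones in the Atrx-floxed tumours kept its sign in all.

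Counts of all genes called did change. DESeq2 called 34 (H3.3G34R, floxed), 12 (H3.3G34R, intact), 112 (Atrx, under H3.3G34R), 78 (Atrx, under H3.3WT), 77 (both against neither), 103 (Atrx, joint), 7 (H3.3G34R, joint) and 15 (interaction), against 0, 0, 4, 6, 4, 19, 0 and 0 with limma. For Atrx under H3.3G34R no filter gave 12. For Atrx under H3.3G34R, Atrx under H3.3WT and both against neither, edgeR gave 0, 2 and 2, and so did summing libraries that share a title code, and log2 Xist as a covariate. A pseudocount of 0.5 gave 2 for both against neither. Leaving out 1 library gave 0 to 5, 2 to 8 and 2 to 8 for the same 3 comparisons and 16 to 27 for Atrx jointly, the highest of the last 3 without replicate 3 of the Atrx-intact H3.3WT group. The cause was not tested. No paired analysis was possible because the replicate numbers follow accession order and pair no libraries. With 3 or 4 libraries a group, the intervals of Myc, Mycn and Mycl in the pair comparisons all reached past a 2-fold change.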
